A study of Mus musculus with 8 samples.

Results

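Macrophage genes were followed in the epididymal white fat of mice, with attention to whether genes of lipid-associated macrophages and genes of resident macrophages differed in the same way between genotypes. The members were the rows of the expression files whose symbol stood in a list of 38 macrophage gene symbols. There were 37 such genes among 18691 in all, because Adgre1 is a newer symbol for the gene listed as Emr1 (gene 13733). The lipid-associated group had 4 genes (Trem2, Itgax, Gpnmb and Lgals3) and the resident group had 5 (Mrc1, Cd163, Lyve1, Timd4 and Folr2). RNA with poly-A tails was sequenced from whole epididymal fat of C57BL/6J mice aged 16 weeks, in 4 libraries labelled Mrp4 knockout (Mrp4-/-, called Mrp4 KO below) and 4 wild type (WT) libraries. Mrp4, encoded by Abcc4, is a membrane pump that exports cyclic AMP and prostaglandins. How the allele was made, and whether each library came from its own mouse, is not given in the labels. The p-values below therefore speak of the spread among libraries, which may be technical.

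Macrophages of fat engulf dead cells, take up lipid and present antigen. Resident macrophages lie along blood vessels, carry the receptors CD163, MRC1, LYVE1 and FOLR2 and the phosphatidylserine receptor TIM4, and are long lived. Lipid-associated macrophages collect around dying fat cells, largely from blood monocytes, and are known for the receptor TREM2, which signals through the adaptor TYROBP, and for a lysosomal gene programme. Galectin-3 (Lgals3), the integrin CD11c (Itgax) and the lysosomal glycoprotein GPNMB are their usual markers.

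Total expected counts ran from 14064681 to 14700114 per library, so depth differed little. The transcript of the targeted gene, Abcc4, did not separate the labels. It was at 3.54, 3.68, 3.89 and 3.31 FPKM (fragments per kilobase of transcript, scaled to depth) in the libraries labelled Mrp4 KO, against 3.59, 3.33, 3.81 and 3.33 FPKM in WT (exact two-sided permutation p = 0.571, where 4 against 4 libraries allow no p below 0.0286). Values are summed over each gene, so reads of single exons cannot be seen. The transcript therefore does not check the labels, and every direction below rests on the label. Of 14257 genes tested with edgeR's quasi-likelihood test, 1458 were higher and 1148 lower under the Mrp4 KO label at a Benjamini-Hochberg adjusted p under 0.05. The share of calls that were higher was 55.9%, and 74.1% when libraries were scaled by total count alone.

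Several macrophage genes were higher under the Mrp4 KO label, none of them among the 5 resident genes. Of the 37 members, all of which entered the test, 12 rose, 1 fell and 24 did not pass. This was 32.4% higher, beside 10.2% of all tested genes, and 2.70% lower, beside 8.05%. The median log2 fold change (Mrp4 KO over WT, as all log2 fold changes here) was 0.34 over the members and -0.003 over all tested genes. FPKM ranges of the groups did not overlap for 14 members, 13 with the Mrp4 KO label above WT and 1 below, where 16.4% and 7.08% of all tested genes were separated in those directions. In whole tissue, a change in the number of macrophages and a change in RNA per macrophage cannot be told apart.

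**Figure D1:**
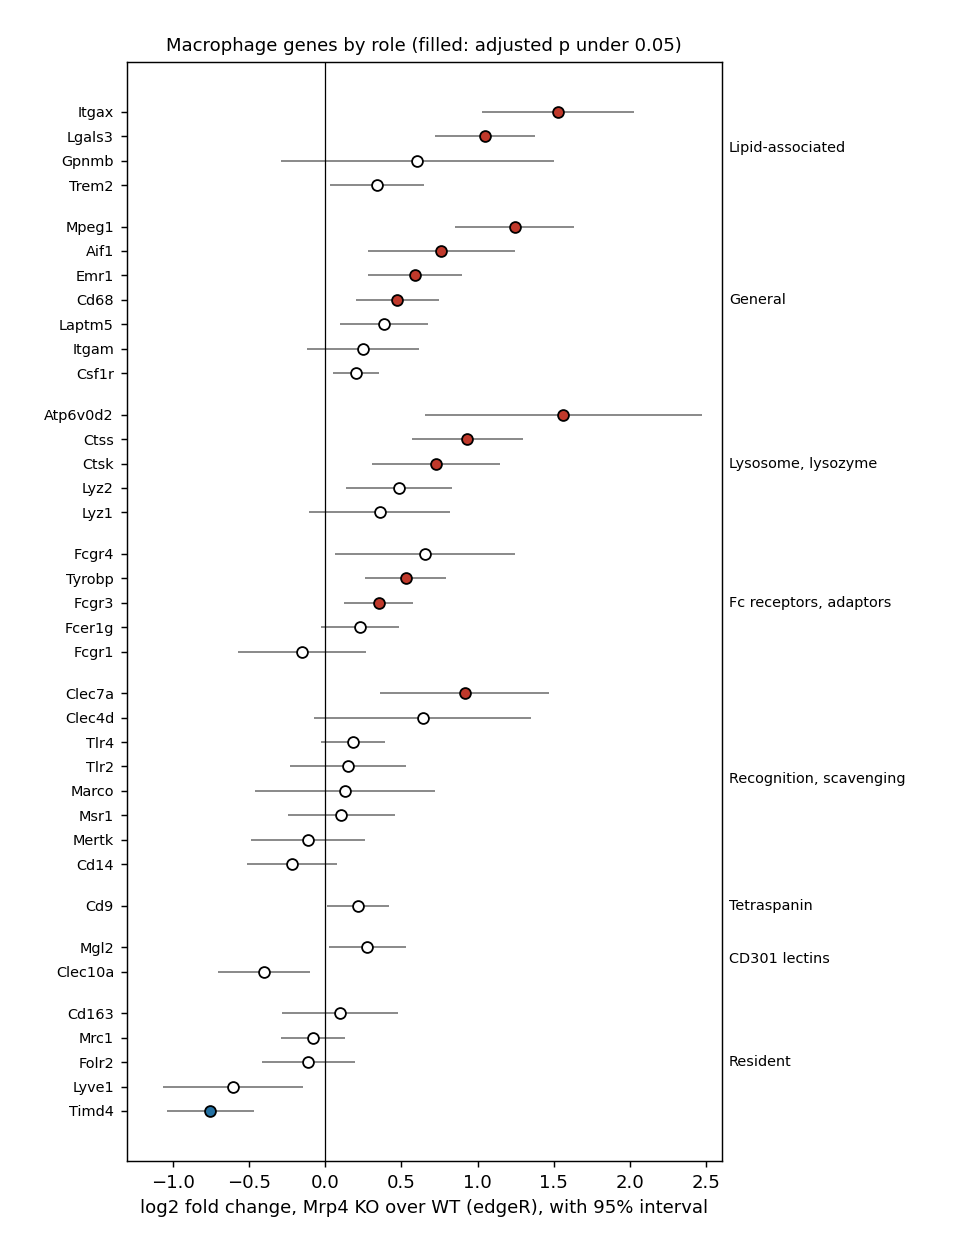
Log2 fold change of the 37 macrophage genes (x axis, Mrp4 KO over WT, point with 95% interval from edgeR, 4 libraries per group), grouped by role down the page. Filled points passed an adjusted p of 0.05: 12 lie right of 0, and Timd4, at -0.75, is the 1 to the left.

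Among the 4 lipid-associated genes, Itgax and Lgals3 rose and Trem2 and Gpnmb did not pass. Itgax (gene 16411), a subunit of the complement receptor CD11c/CD18 that dendritic cells also carry, was at 10.9, 8.96, 9.83 and 8.18 FPKM in the libraries labelled Mrp4 KO, against 1.88, 3.98, 2.55 and 4.14 FPKM in WT. Each library with the Mrp4 KO label lay above each WT library, with a log2 fold change of 1.53 ± 0.22 (SE; edgeR adjusted p = 0.0031). Lgals3 (gene 16854), which encodes the β-galactoside-binding lectin galectin-3, was at 156, 131, 154 and 119.6 FPKM in the libraries labelled Mrp4 KO, against 49.2, 83.4, 66.3 and 61.0 FPKM in WT. The groups did not overlap here either, and the log2 fold change was 1.05 ± 0.15 (edgeR adjusted p = 0.00252). Both calls held whichever library was left out.

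Trem2 (gene 83433), the lipid-sensing receptor after which the lipid-associated state is often named, was at 10.8, 9.93, 12.0 and 9.15 FPKM in the libraries labelled Mrp4 KO, against 7.83, 7.29, 6.85 and 9.57 FPKM in WT. WT replicate 4 lay above replicate 5 of the Mrp4 KO label, so the groups overlapped. The log2 fold change was 0.34 ± 0.14, with a 95% interval of 0.03 to 0.65 (edgeR adjusted p = 0.111), and limma on log2(FPKM + 1) called it higher. Gpnmb (gene 93695) was at 23.5, 15.3, 30.5 and 12.8 FPKM in the libraries labelled Mrp4 KO, against 8.29, 14.0, 6.82 and 22.3 FPKM in WT. WT replicate 4 was above 2 of the 4 libraries labelled Mrp4 KO, and the interval of -0.29 to 1.5 around 0.60 spanned 0 (edgeR adjusted p = 0.306). Replicate 4 was the highest library of its group for Gpnmb under both labels.

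Among the 5 resident genes, Timd4 fell and the other 4 did not pass. Timd4 (gene 276891), which encodes the phosphatidylserine receptor TIM4, was at 2.56, 2.34, 2.15 and 2.20 FPKM in the libraries labelled Mrp4 KO, against 4.01, 3.37, 4.22 and 3.32 FPKM in WT. The groups did not overlap, and the log2 fold change was -0.75 ± 0.13 (edgeR adjusted p = 0.00605), a call that held whichever library was left out. Expected counts of Timd4 were 66 to 79.0 per library under the Mrp4 KO label and 101 to 131 in WT, so this is the least deeply read of the resident genes. Lyve1 (gene 114332), a hyaluronan receptor that lymphatic endothelium also makes, was at 24.3, 32.4, 43.1 and 29.4 FPKM in the libraries labelled Mrp4 KO, against 40.8, 43.1, 65.8 and 38.6 FPKM in WT. WT replicate 3 was far above the other WT libraries, replicate 4 of the Mrp4 KO label reached the WT range, and the log2 fold change of -0.60 had an interval of -1.06 to -0.14 (edgeR adjusted p = 0.0681); it passed with DESeq2 and without replicate 4 of the Mrp4 KO label.

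Mrc1 (gene 17533), the mannose receptor CD206, was at 42.8, 36.6, 33.6 and 32.6 FPKM in the libraries labelled Mrp4 KO, against 36.0, 33.4, 40.4 and 37.0 FPKM in WT. The groups covered nearly the same range, with a log2 fold change of -0.08 and an interval of -0.29 to 0.13 (edgeR adjusted p = 0.583). Cd163 (gene 93671), the haemoglobin-haptoglobin scavenger receptor, was at 24.6, 25.4, 27.4 and 36.2 FPKM in the libraries labelled Mrp4 KO, against 20.9, 23.3, 33.7 and 23.8 FPKM in WT. Its interval of -0.28 to 0.48 spanned 0 (edgeR adjusted p = 0.706), and replicate 5 of the Mrp4 KO label and WT replicate 3 stood above their groups. Folr2 (gene 14276), the folate receptor β, was at 67.4, 66.2, 60.7 and 47.2 FPKM in the libraries labelled Mrp4 KO, against 56.1, 65.5, 77.0 and 51.3 FPKM in WT. Its interval was -0.41 to 0.19 (edgeR adjusted p = 0.596). For Mrc1 and Folr2 the upper bounds of the interval lay below the lower bounds of Itgax and Lgals3, but above those of Trem2 and Gpnmb (0.03 and -0.29).

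**Figure D2:**
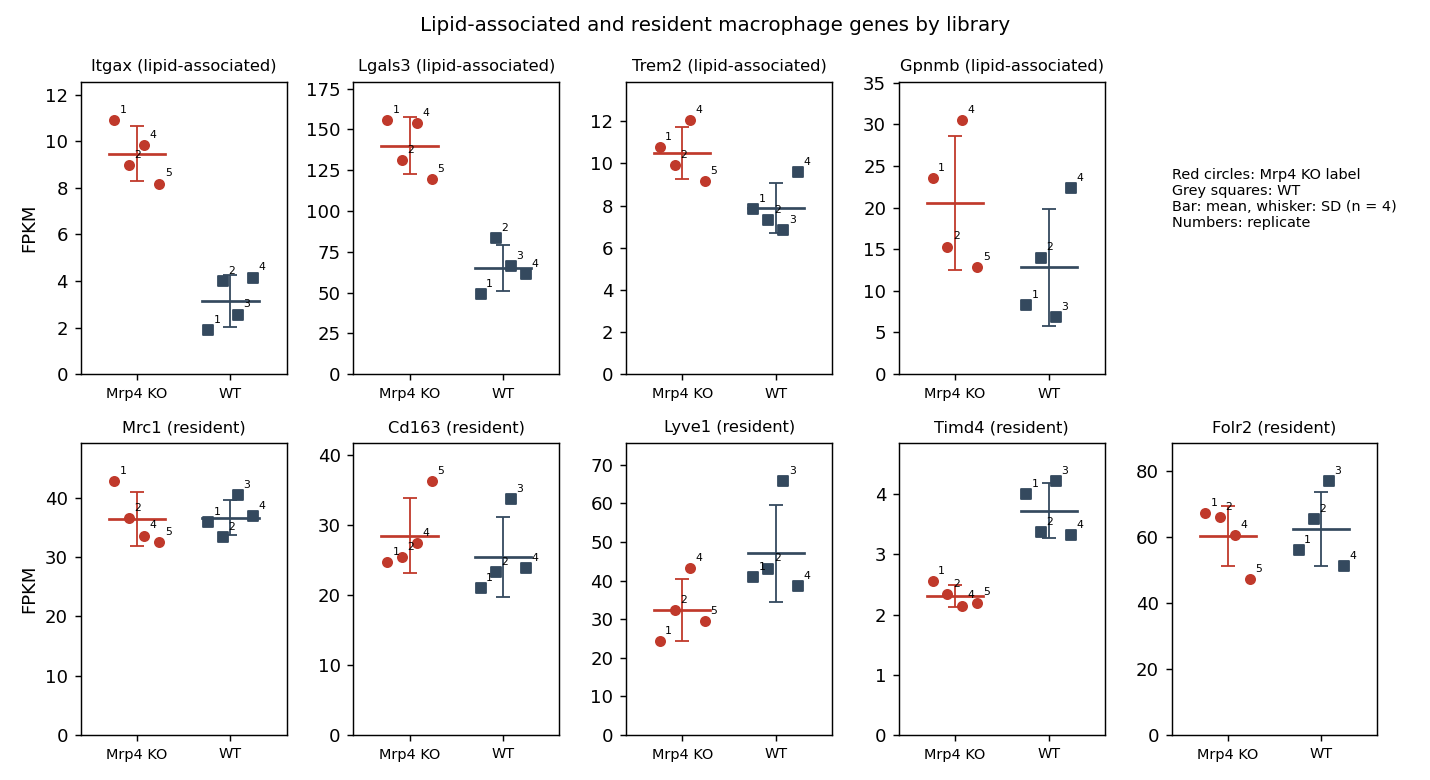
FPKM (y axis, from 0) of the 4 lipid-associated genes (top row) and the 5 resident genes (bottom row) in each library; the Mrp4 KO label is on the left and WT on the right, numbers give the replicate, lines the mean and whiskers the SD (n = 4). Itgax and Lgals3 are separated upward and Timd4 downward, while the other 6 genes overlap between groups.

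The lipid-associated genes stood higher against the resident genes in the libraries labelled Mrp4 KO than in WT. In each library, the mean log2(FPKM + 1) of the 4 lipid-associated genes minus that of the 5 resident genes was taken. It was 0.21, -0.11, 0.25 and -0.19 in the libraries labelled Mrp4 KO, against -1.26, -0.75, -1.58 and -0.54 in WT. The groups did not overlap, and the means were 0.04 ± 0.22 under the Mrp4 KO label and -1.03 ± 0.48 in WT (SD, n = 4), a difference of 1.07. The genes were chosen with results of these libraries known, so no p is given for this value. It ran from 0.89 (without WT replicate 3) to 1.24 (without WT replicate 4) when a library was left out.

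Both sides of this difference were set against the general macrophage genes (Emr1, Cd68, Csf1r, Itgam, Mpeg1, Aif1 and Laptm5), whose own mean log2(FPKM + 1) was 5.18 ± 0.21 under the Mrp4 KO label and 4.61 ± 0.10 in WT. The lipid-associated mean lay -0.58 ± 0.13 from the general mean under the Mrp4 KO label and -0.90 ± 0.26 in WT, with overlapping groups. The resident mean lay -0.62 ± 0.19 from the general mean under the Mrp4 KO label and 0.13 ± 0.24 in WT, without overlap. The general mean was itself 0.57 higher under the Mrp4 KO label, so a gene at the same level in all libraries lies lower on this scale. Relative to the general genes, 65.9% of all tested genes, 10 of the 37 members and 4 of the 5 resident genes (all but Cd163) were lower in each library labelled Mrp4 KO than in each WT library. The resident genes are thus not set apart from other genes on this scale. In the other direction, 1.24% of all tested genes and 4 of the 37 members were separated, among them Itgax and Lgals3. Trem2 and Gpnmb overlapped and differed by -0.20 and 0.12. The resident mean log2(FPKM + 1) itself was 4.55 ± 0.04 under the Mrp4 KO label and 4.74 ± 0.21 in WT, with overlapping groups. Whether the lists changed by different amounts was described here and not tested.

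**Figure D3:**
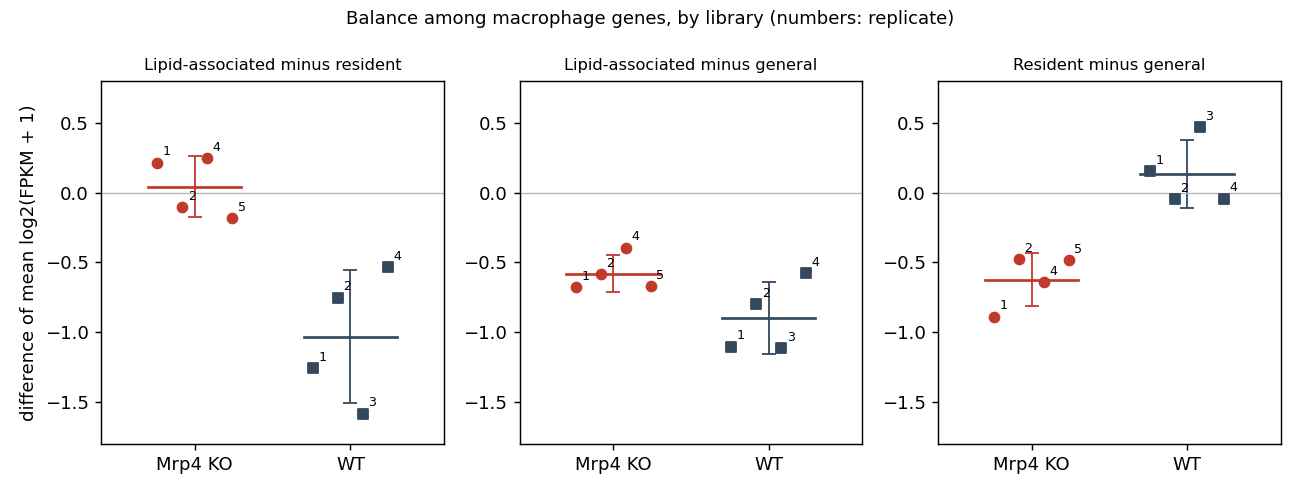
Difference of mean log2(FPKM + 1) between groups of macrophage genes (y axis) in each library, Mrp4 KO label left and WT right, with replicate numbers, mean line and SD whisker (n = 4). The left and right panels are separated between groups (means of 0.04 and -1.03, and of -0.62 and 0.13), and the middle panel overlaps.

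Start-site sequence was available for 28 of the 37 members (RefSeq, GRCm38.p6, 250 bases before to 50 after the start). PU.1, the factor that sets macrophage identity, binds purine-rich sites, and AP-1 joins it at many macrophage genes. The letters GAGGAAG, searched on both strands, were in the promoter of 11 of the 28 members (39.3%), beside 13.6% of all 32851 promoters of 300 bases. TGANTCA, an AP-1 motif that is the same on both strands, was in 5 of the 28 (17.9%), beside 7.81% of all promoters. A gene with several start sites counted once among the members, while each start site counted among all promoters. Of the 9 members with a promoter that rose, 3 had the first motif and 2 the second, and among the 18 that did not pass, 8 and 3 had them. The 150 bases before the start are shown for genes that stood on each side of the comparison (all on the plus strand), with these motifs in capitals and the first read as CTTCCTC where it lies on the minus strand: Itgax (chr7:128129400-128129549) and Lgals3 (chr14:47373710-47373859), which rose, Trem2 (chr17:48346251-48346400), which overlapped, Ctsk (chr3:95499060-95499209), a lysosomal protease gene that rose, Mrc1 (chr2:14229264-14229413), which did not pass, and Timd4 (chr11:46810649-46810798), which fell.
Itgax: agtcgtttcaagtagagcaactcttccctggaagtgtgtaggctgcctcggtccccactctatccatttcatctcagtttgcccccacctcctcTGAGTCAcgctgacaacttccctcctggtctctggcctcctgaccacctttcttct
Lgals3: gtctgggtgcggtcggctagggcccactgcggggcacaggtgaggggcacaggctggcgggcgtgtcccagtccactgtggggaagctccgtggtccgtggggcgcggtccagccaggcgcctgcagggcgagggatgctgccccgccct
Trem2: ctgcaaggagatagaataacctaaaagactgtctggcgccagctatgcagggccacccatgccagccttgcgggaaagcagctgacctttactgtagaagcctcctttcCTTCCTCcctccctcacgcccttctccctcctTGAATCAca
Ctsk: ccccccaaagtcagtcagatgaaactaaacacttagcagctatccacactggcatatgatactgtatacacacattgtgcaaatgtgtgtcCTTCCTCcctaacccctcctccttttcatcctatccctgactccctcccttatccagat
Mrc1: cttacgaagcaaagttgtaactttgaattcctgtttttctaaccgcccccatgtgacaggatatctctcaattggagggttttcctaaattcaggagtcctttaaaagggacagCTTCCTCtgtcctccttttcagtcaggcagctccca
Timd4: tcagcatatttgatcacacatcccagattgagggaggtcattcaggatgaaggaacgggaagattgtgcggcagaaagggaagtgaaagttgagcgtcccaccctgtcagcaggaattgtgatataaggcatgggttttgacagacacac
Trem2 held both motifs, with the first base of the PU.1 letters 41 and of the AP-1 letters 9 bases before the start. Itgax held the AP-1 letters 56 bases before the start, and the PU.1 letters began 59 bases before the start in Ctsk and 36 in Mrc1. These windows of Lgals3 and Timd4 held neither set of letters.

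General macrophage genes rose in part, from small to more than 2-fold differences. All 7 had a positive log2 fold change, as had 7063 of the 14257 tested genes. Of the 7, 4 passed (57.1% higher, beside 10.2% of all tested genes). Mpeg1 (gene 17476), the pore-forming protein perforin-2, was at 48.8, 33.7, 45.2 and 39.2 FPKM in the libraries labelled Mrp4 KO, against 13.6, 20.5, 13.3 and 19.99 FPKM in WT. It had the largest log2 fold change of the 7, 1.24 ± 0.17 (fold 2.37, edgeR adjusted p = 0.00256), and the groups were far apart. Emr1, the F4/80 adhesion receptor by which mouse macrophages are usually stained, was at 34.0, 23.8, 31.0 and 24.3 FPKM in the libraries labelled Mrp4 KO, against 14.9, 21.3, 19.1 and 16.5 FPKM in WT. It rose by less, 0.59 ± 0.14 (edgeR adjusted p = 0.0217). Cd68, a lysosomal membrane glycoprotein, was at 71.8 ± 13.2 FPKM under the Mrp4 KO label and 49.6 ± 4.09 FPKM in WT (SD, n = 4; 0.47, edgeR adjusted p = 0.0293). Aif1, the actin-binding protein IBA1, was at 3.81 ± 0.410 FPKM under the Mrp4 KO label and 2.15 ± 0.484 FPKM in WT (0.76, edgeR adjusted p = 0.0374), on 18 to 51.0 expected counts per library.

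Csf1r (gene 12978), the receptor through which CSF1 and IL-34 keep macrophages alive, was at 88.9, 79.8, 81.9 and 76.0 FPKM in the libraries labelled Mrp4 KO, against 65.2, 68.6, 68.9 and 68.3 FPKM in WT. The groups did not overlap, but the difference was small and did not pass (0.20 ± 0.07, edgeR adjusted p = 0.06). Laptm5, a lysosomal membrane protein of blood cells, was at 106 ± 21.4 FPKM under the Mrp4 KO label and 77.8 ± 6.57 FPKM in WT (0.39, edgeR adjusted p = 0.064). Itgam, the integrin CD11b that neutrophils and monocytes share, was at 29.9, 19.2, 19.9 and 16.3 FPKM in the libraries labelled Mrp4 KO, against 16.6, 17.0, 19.6 and 15.3 FPKM in WT. Only replicate 1 of the Mrp4 KO label stood clearly above the WT range (0.25, interval -0.12 to 0.62). Csf1r and Laptm5 were called higher with DESeq2 and with library size alone. Csf1r was also called in both limma fits, and Laptm5 without replicate 5 of the Mrp4 KO label.

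Lysosomal genes were among the larger rises. With the lysozyme genes they made a list of 5, of which 3 rose (60.0%, beside 10.2% of all tested genes). Ctss (gene 13040), the cathepsin that trims the invariant chain for antigen presentation, was at 131, 86.3, 117 and 81.2 FPKM in the libraries labelled Mrp4 KO, against 41.2, 56.6, 54.0 and 56.3 FPKM in WT. The lowest library labelled Mrp4 KO was above the highest WT library, and the log2 fold change was 0.93 ± 0.16 (edgeR adjusted p = 0.00738). Ctsk, the collagen-cleaving cathepsin K, was at 19.9, 18.9, 19.8 and 16.9 FPKM in the libraries labelled Mrp4 KO, against 9.0, 14.6, 7.38 and 12.6 FPKM in WT. It rose by 0.73 ± 0.19 (edgeR adjusted p = 0.0294), and its values under the Mrp4 KO label were close together while WT varied. Atp6v0d2, a subunit of the lysosomal proton pump found in macrophages and osteoclasts, was at 6.63, 3.84, 7.97 and 3.91 FPKM in the libraries labelled Mrp4 KO, against 0.720, 1.94, 1.36 and 3.20 FPKM in WT. It had the largest log2 fold change of all members, 1.56 ± 0.40 (edgeR adjusted p = 0.0305), at low levels and with WT replicate 4 near the lowest Mrp4 KO values; without a filter on low counts it did not pass.

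The lysozyme genes, which encode the enzyme that cuts bacterial cell walls, did not pass. Lyz2, the most abundant member, was at 941, 619.7, 779 and 535 FPKM in the libraries labelled Mrp4 KO, against 469.9, 478, 550.2 and 469 FPKM in WT. Only replicate 5 of the Mrp4 KO label reached into the WT range, and the log2 fold change was 0.48 ± 0.16 (edgeR adjusted p = 0.0568). Lyz2 was called higher with DESeq2, with library size alone and without replicate 5 of the Mrp4 KO label. Lyz1 was at 125 ± 37.4 FPKM under the Mrp4 KO label and 93.2 ± 20.6 FPKM in WT (0.36, interval -0.11 to 0.82). These copies are near-identical and had expected counts that were not whole, so the division of reads between them is uncertain. Their summed FPKM was 622 to 1118 under the Mrp4 KO label and 543 to 668 in WT.

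Among 5 Fc receptors and adaptors, Tyrobp and Fcgr3 rose (40.0%, beside 10.2% of all tested genes). Tyrobp (gene 22177), the adaptor DAP12 that passes on signals of TREM2 and other receptors, was at 115, 86.4, 105 and 78.8 FPKM in the libraries labelled Mrp4 KO, against 58.8, 71.6, 69.6 and 57.4 FPKM in WT. It was higher in each library labelled Mrp4 KO than in each WT library (0.53 ± 0.12, edgeR adjusted p = 0.0187). Fcgr3, an activating receptor for IgG, was at 63.7, 50.9, 65.4 and 57.9 FPKM in the libraries labelled Mrp4 KO, against 37.4, 48.3, 46.7 and 46.1 FPKM in WT (0.35 ± 0.10, edgeR adjusted p = 0.0396). Its expected counts were not whole, and it may share reads with related receptors. Fcer1g, the γ chain that these receptors signal through, was at 91.1 ± 15.4 FPKM under the Mrp4 KO label and 74.5 ± 8.40 FPKM in WT (0.23, interval -0.02 to 0.49). Fcgr4 had 2.34 ± 0.552 FPKM under the Mrp4 KO label and 1.42 ± 0.360 FPKM in WT (0.66, interval 0.07 to 1.25) and Fcgr1, the high-affinity receptor, 2.48 ± 0.129 FPKM under the Mrp4 KO label and 2.63 ± 0.720 FPKM in WT (-0.15, interval -0.57 to 0.27). None of these 3 passed (edgeR adjusted p = 0.175, 0.108 and 0.596).

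Of 8 recognition and scavenging receptors, only Clec7a passed, which is 12.5% higher beside 10.2% of all tested genes, a share near the background. Clec7a (gene 56644), the β-glucan receptor dectin-1, was at 11.1, 7.89, 6.17 and 6.11 FPKM in the libraries labelled Mrp4 KO, against 3.52, 5.37, 2.58 and 4.36 FPKM in WT. It was above WT in all 4 libraries labelled Mrp4 KO, most in replicate 1 (0.92 ± 0.25, edgeR adjusted p = 0.0339). Clec4d, another lectin receptor of myeloid cells, was at 1.98 ± 0.852 FPKM under the Mrp4 KO label and 1.21 ± 0.222 FPKM in WT (0.64, interval -0.07 to 1.35). The remaining 6 had log2 fold changes from -0.22 (Cd14, the lipopolysaccharide co-receptor, interval -0.51 to 0.08) to 0.18 (Tlr4, the lipopolysaccharide receptor, interval -0.03 to 0.39). Between these lay Tlr2, a receptor for bacterial lipoproteins, at 0.15, the scavenger receptors Marco and Msr1 at 0.13 and 0.11, and Mertk, a receptor for dying cells, at -0.11. Their intervals all spanned 0.

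The lectins of the CD301 pair, which bind galactose-type sugars, pointed apart without passing. Clec10a (CD301a) was at 42.7, 34.9, 32.2 and 26.9 FPKM in the libraries labelled Mrp4 KO, against 42.3, 37.5, 51.2 and 41.7 FPKM in WT. Its log2 fold change was -0.40 ± 0.13 (interval -0.70 to -0.10, edgeR adjusted p = 0.065). It passed as lower with DESeq2, without replicate 1 of the Mrp4 KO label and without WT replicate 2. Mgl2 (CD301b) was at 57.1, 41.8, 44.9 and 42.7 FPKM in the libraries labelled Mrp4 KO, against 36.4, 36.5, 43.0 and 31.7 FPKM in WT (0.28 ± 0.11, interval 0.02 to 0.53, edgeR adjusted p = 0.113). Their expected counts were not whole and reads may be shared between them. The summed FPKM of the pair was 69.6 to 99.8 under the Mrp4 KO label and 73.4 to 94.2 in WT. Cd9, a membrane tetraspanin that marks lipid-associated macrophages and is made by many other cells of fat, was at 46.7 ± 5.13 FPKM under the Mrp4 KO label and 38.6 ± 3.94 FPKM in WT (0.22, interval 0.01 to 0.42, edgeR adjusted p = 0.12).

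Libraries of the Mrp4 KO label differed in how high these genes stood. Of the 12 genes that rose, 9 were highest in replicate 1 and 3 in replicate 4 of that label, while 7 were lowest in replicate 5 and 5 in replicate 2. Over all 37 members, replicate 1 of the Mrp4 KO label was the highest of the 8 libraries for 21, and WT replicate 3 for 6. Calls of Itgax, Lgals3, Mpeg1, Ctss and Timd4 held whichever library was left out. Of the 8 fits without 1 library, Aif1 was called only in that without WT replicate 4, and Ctsk only in those without WT replicate 2, 3 or 4 (log2 fold changes of 0.62 to 0.88 and 0.58 to 0.89). Cd68 and Fcgr3 were lost without replicate 1 or 4 of the Mrp4 KO label or WT replicate 1, 3 or 4, and Fcgr3 also without replicate 5 of the Mrp4 KO label (0.40 to 0.57 and 0.28 to 0.43). Emr1 and Tyrobp were lost without replicate 4 of the Mrp4 KO label or WT replicate 1 or 4 (0.50 to 0.67 and 0.44 to 0.61). Atp6v0d2 was lost without replicate 1 or 4 of the Mrp4 KO label or WT replicate 1 or 3, and Clec7a without replicate 1 or 2 of the Mrp4 KO label or WT replicate 1, 3 or 4 (1.30 to 2.0 and 0.71 to 1.08). The number of members that rose was 6, 9, 5 and 11 without replicate 1, 2, 4 and 5 of the Mrp4 KO label, and 4, 11, 7 and 7 without WT replicate 1, 2, 3 and 4. The number that fell was 2 without replicate 1 or 4 of the Mrp4 KO label or without WT replicate 2, and 1 without each of the others. Calls over all tested genes moved too, from 18.3% in either direction with all libraries. They were 10.2%, 11.5%, 9.61% and 10.5% without replicate 1, 2, 4 and 5 of the Mrp4 KO label. Without WT replicate 1, 2, 3 and 4 they were 9.48%, 25.5%, 10.2% and 8.12%. The member counts of these fits are thus not particular to macrophage genes.

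Genes tied to each macrophage state outside the members passed in part. Of 20 further genes of the lipid-associated programme, 5 rose and 1 fell (25.0% and 5.0%, beside 10.2% and 8.05% of all tested genes), with a median of 0.35. Lipa, the lysosomal acid lipase that frees fatty acids and cholesterol from lipid taken up, was at 50.9, 42.9, 53.1 and 41.6 FPKM in the libraries labelled Mrp4 KO, against 30.9, 33.7, 28.7 and 30.8 FPKM in WT (0.54 ± 0.09, edgeR adjusted p = 0.00567), without overlap and in every leave-one-out fit. Spp1, which encodes osteopontin, was at 1.97, 1.83, 2.47 and 2.11 FPKM in the libraries labelled Mrp4 KO, against 0.250, 0.710, 0.380 and 1.22 FPKM in WT (1.64, or 1.37 to 2.15 without 1 library, lost without replicate 4 of the Mrp4 KO label or WT replicate 3). Spp1 and Dcstamp averaged under 1 FPKM in WT and met the minimum level for naming only through the Mrp4 KO label, so their large differences are given as values and not as support for the list. Both are among the 5 genes that rose. The 25.0% and the median include them, and so are no support for the list either. Dcstamp, a fusion protein of osteoclasts and dendritic cells, was at 1.45, 0.910, 2.0 and 0.580 FPKM in the libraries labelled Mrp4 KO, against 0.280, 0.430, 0.320 and 0.400 FPKM in WT (1.72, or 1.39 to 1.95 without 1 library, lost without WT replicate 1). The cathepsin genes Ctsl (0.44) and Ctsz (0.40) also rose, and Apoe, which encodes apolipoprotein E, fell (-0.40); Ctsz and Apoe are named after their values were seen. Ctsl and Ctsz were each lost in 6 of 8 fits without 1 library (0.36 to 0.52 and 0.33 to 0.47), holding without replicate 1 of the Mrp4 KO label (Ctsl), without replicate 2 (Ctsz) and without WT replicate 2 (both). Apoe held only without replicate 2 of the Mrp4 KO label or WT replicate 1 or 2 (-0.46 to -0.34), and not with library size alone or limma on log2(FPKM + 1). Many genes of this list, such as Lpl and Cd36, are made mainly by fat cells or endothelium in this tissue.

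Of 16 further genes of resident macrophages, 0 rose and 3 fell (18.8% lower; 8.05% of all tested genes were lower), with a median of -0.13. At an unadjusted edgeR p under 0.05, 1 gene was higher, and DESeq2 called 1 higher. Fcna, ficolin A, a lectin that starts complement, was at 32.5, 28.1, 44.4 and 24.7 FPKM in the libraries labelled Mrp4 KO, against 54.3, 57.0, 89.0 and 46.3 FPKM in WT (-0.99 ± 0.22, edgeR adjusted p = 0.0201). It was lower in each library labelled Mrp4 KO than in each WT library, and was lost without replicate 1 or 5 of that label (-1.17 to -0.76). Cd209b, a C-type lectin, was at 8.79, 7.42, 8.41 and 7.27 FPKM in the libraries labelled Mrp4 KO, against 11.6, 10.2, 12.9 and 11.7 FPKM in WT (-0.65 ± 0.10, edgeR adjusted p = 0.00427), without overlap and in every leave-one-out fit. The related Cd209f was at 37.8, 43.6, 33.7 and 22.4 FPKM in the libraries labelled Mrp4 KO, against 50.1, 53.7, 55.7 and 43.6 FPKM in WT (-0.63 ± 0.17, edgeR adjusted p = 0.0331). It was lost without replicate 1 or 4 of the Mrp4 KO label or WT replicate 1, 3 or 4 (-0.75 to -0.47), with library size alone and with limma on log2(FPKM + 1) and log2(FPKM + 0.1). Cd209g was at 13.8 ± 4.60 FPKM under the Mrp4 KO label and 19.7 ± 2.16 FPKM in WT and did not pass (-0.57, edgeR adjusted p = 0.0972). Members of the Cd209 family are similar in sequence and may share reads.

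In signalling through immunoreceptor tyrosine-based activation motifs, which TYROBP and the Fc receptors use, all 12 tested genes had a positive log2 fold change and 3 rose (25.0%, beside 10.2%), with a median of 0.49. Over all tested genes, 7063 of 14257 had a positive log2 fold change. Hcst, the remaining gene of the list, was too low to enter the main test and pointed the other way. It was at 1.64 ± 0.175 FPKM under the Mrp4 KO label and 1.92 ± 0.723 FPKM in WT, with overlapping groups. Lyn, a Src-family kinase, was at 20.7, 19.1, 19.8 and 18.1 FPKM in the libraries labelled Mrp4 KO, against 11.2, 13.9, 12.9 and 10.4 FPKM in WT (0.61 ± 0.09, edgeR adjusted p = 0.00235), and Blnk, an adaptor of SYK, at 9.78, 7.29, 8.21 and 7.13 FPKM in the libraries labelled Mrp4 KO, against 4.26, 5.87, 3.41 and 3.62 FPKM in WT (0.85 ± 0.17, edgeR adjusted p = 0.0125). Both were separated between groups and held whichever library was left out. Syk, the kinase that TYROBP recruits, was at 21.6 ± 3.71 FPKM under the Mrp4 KO label and 14.2 ± 3.15 FPKM in WT (0.54, edgeR adjusted p = 0.0481), and this call held only without WT replicate 2 (0.42 to 0.65) and not without a filter on low counts. Ptpn6, the phosphatase SHP-1, was at 9.54 ± 1.94 FPKM under the Mrp4 KO label and 6.63 ± 0.780 FPKM in WT and did not pass (0.46, edgeR adjusted p = 0.0515). Many of these genes are shared by all blood cell types.

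Among growth factors and their receptors, 2 of 5 tested genes rose (40.0%, beside 10.2%). Il34, a ligand of CSF1R, was at 20.6, 18.7, 19.4 and 19.3 FPKM in the libraries labelled Mrp4 KO, against 9.83, 16.1, 15.8 and 10.4 FPKM in WT (0.52 ± 0.15, edgeR adjusted p = 0.0421), and Csf2ra, the GM-CSF receptor α chain, at 54.8, 39.1, 39.7 and 35.8 FPKM in the libraries labelled Mrp4 KO, against 21.9, 33.0, 32.2 and 24.1 FPKM in WT (0.54 ± 0.16, edgeR adjusted p = 0.0429). Il34 held only without WT replicate 2 or 3 and Csf2ra only without WT replicate 2 (0.41 to 0.63 and 0.41 to 0.62), and Csf2ra did not pass without a filter on low counts. Csf1, the other ligand of CSF1R, was at 24.6 ± 2.22 FPKM under the Mrp4 KO label and 25.8 ± 4.72 FPKM in WT (-0.19, interval -0.49 to 0.10), and Csf2rb at 20.1 ± 3.0 FPKM under the Mrp4 KO label and 17.8 ± 1.75 FPKM in WT (0.12, interval -0.12 to 0.35). Of 13 transcription factors of macrophages, 3 rose (23.1%, beside 10.2%) and 0 fell, with a median of 0.10. At an unadjusted edgeR p under 0.05, 0 were lower, and DESeq2 called 0 lower. Irf8, needed for monocytes and dendritic cells, was at 15.7, 10.7, 13.6 and 10.7 FPKM in the libraries labelled Mrp4 KO, against 6.62, 7.82, 7.29 and 6.03 FPKM in WT (0.81 ± 0.13, edgeR adjusted p = 0.00511), a call that held whichever library was left out. Runx1 (0.49, or 0.42 to 0.61 without 1 library, held only without replicate 5 of the Mrp4 KO label or WT replicate 2) and Irf5 (0.32, or 0.23 to 0.39, held only without replicate 5 of the Mrp4 KO label, and not without a filter on low counts) also rose. Sfpi1, the gene of PU.1, was at 23.7 ± 5.02 FPKM under the Mrp4 KO label and 17.5 ± 0.874 FPKM in WT and did not pass (0.38, edgeR adjusted p = 0.0685).

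Markers of other cells moved beside the macrophage genes, and their part in the results was not tested. The counts of markers called stand beside 10.2% higher and 8.05% lower among all tested genes. Summed FPKM of 8 monocyte genes was 33.7 to 55.2 under the Mrp4 KO label and 24.8 to 36.2 in WT. Of these, 3 rose: Ccr2, the monocyte chemokine receptor, was at 29.3, 17.7, 18.4 and 15.0 FPKM in the libraries labelled Mrp4 KO, against 8.06, 11.2, 9.28 and 7.30 FPKM in WT (1.10 ± 0.20, edgeR adjusted p = 0.00891), and Cx3cr1 and Spn had log2 fold changes of 1.22 and 0.79, while Ly6c2, the classical monocyte marker, did not pass (-0.39, interval -1.13 to 0.36). Ccr2 held in every leave-one-out fit, and Cx3cr1 and Spn were lost without replicate 1 or 2 of the Mrp4 KO label or WT replicate 1, 3 or 4 (0.99 to 1.41 and 0.68 to 0.94). Summed FPKM of 10 dendritic cell genes was 26.9 to 39.0 under the Mrp4 KO label and 22.2 to 29.0 in WT, and 4 rose (Flt3, Clec9a, Batf3 and Ccr7, by 1.08, 0.61, 0.89 and 1.60) and Itgae fell (-1.02). Ccr7 held in every leave-one-out fit and the others did not (0.93 to 1.28, 0.52 to 0.74, 0.67 to 1.02 and -1.21 to -0.90): Flt3 and Batf3 were lost without replicate 1 or 4 of the Mrp4 KO label or WT replicate 1 or 4, Batf3 also without WT replicate 3, Clec9a without replicate 1, 4 or 5 of the Mrp4 KO label or WT replicate 1, 3 or 4, and Itgae without WT replicate 4. Itgax, Mpeg1, Ctss, Irf8 and Ccr2 are also made by dendritic cells, so these levels cannot be assigned to macrophages alone. Cx3cr1, Flt3 and Ccr7 averaged under 1 FPKM in WT (0.565, 0.4725 and 0.665), against 1.38, 1.05 and 2.12 FPKM under the Mrp4 KO label. Their large differences are given as values and not as support for a change of these lists, whose counts include them.

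T and NK cell genes summed to 12.8 to 15.6 FPKM under the Mrp4 KO label and 6.68 to 10.4 FPKM in WT, with 0 of 9 tested passing in edgeR (2 at an unadjusted p under 0.05, 1 with DESeq2). B cell genes summed to 7.41 to 13.1 FPKM under the Mrp4 KO label and 5.30 to 8.37 FPKM in WT, with 1 of 5 higher (Cd79b, 0.79, or 0.64 to 0.91 without 1 library). Cd79b was called only in the fit without WT replicate 2 among the 8 that left out 1 library. Neutrophil genes summed to 13.7 to 18.0 FPKM under the Mrp4 KO label and 10.6 to 34.3 FPKM in WT, with 1 of 6 lower (Elane, -1.23). Of these 6, 2 had a positive log2 fold change. Elane was at 0.73 FPKM under the Mrp4 KO label (7 to 12 expected counts) and 1.66 FPKM in WT (17 to 25). It averaged at least 1 FPKM only in WT, so its difference is given as a value and not as support for the list. Mast cell genes summed to 27.7 to 50.9 FPKM under the Mrp4 KO label and 47.1 to 81.2 FPKM in WT, with 4 of 5 lower (Cpa3, Cma1, Mcpt4 and Tpsb2) and Kit higher (0.84). Kit held in every leave-one-out fit. The count of mast cell genes that fell was 1, 3, 0 and 0 without replicate 1, 2, 4 and 5 of the Mrp4 KO label, and 0, 4, 0 and 0 without WT replicate 1, 2, 3 and 4. Over all tested genes, 541, 643, 525 and 553 were lower without those libraries of the Mrp4 KO label. Without the WT libraries in that order it was 576, 1706, 602 and 452, against 1148 with all libraries. With 1 library left out, the log2 fold changes were -1.12 to -0.72 (Cpa3), -1.14 to -0.73 (Cma1), -1.25 to -0.87 (Mcpt4) and -1.15 to -0.71 (Tpsb2). Cpa3 and Cma1 were also lost with library size alone and limma on log2(FPKM + 0.1), and Cma1 with no filter on low counts and limma on log2(FPKM + 1). Adipocyte genes summed to 22597 to 26770 FPKM under the Mrp4 KO label and 28564 to 32932 FPKM in WT, without overlap, and 4 of 9 fell (Plin1, Adrb3, Cfd and Retn). The sum rests on Cfd, which encodes the complement protease adipsin and was at 3466 ± 1452 FPKM under the Mrp4 KO label and 9813 ± 2510.0 FPKM in WT. Without Cfd, in a sum added after seeing the data, the other 8 genes reached 18895 to 24356 FPKM under the Mrp4 KO label and 17971 to 22285 FPKM in WT, which overlap. Plin1 was lost without replicate 1, 2 or 4 of the Mrp4 KO label or WT replicate 4 (-0.37 to -0.32). Hepatocyte genes summed to 738 to 1409 FPKM under the Mrp4 KO label and 41.0 to 99.8 FPKM in WT, with 10 of 10 higher. Because liver transcripts stood so far apart, genes of Kupffer cells, the macrophages of liver, were looked at. Clec4f, their defining lectin, was at 0.320, 0.550, 0.580 and 0.270 FPKM in the libraries labelled Mrp4 KO, against 0, 0, 0.0300 and 0 FPKM in WT, too low to enter the main test. It was called higher with no filter on low counts, without replicate 5 of the Mrp4 KO label, and without each WT replicate in turn. Its log2 fold change was 4.95 to 6.86 with 1 library left out. These calls rest on 9 to 20 expected counts per library under the Mrp4 KO label and 0 to 1 in WT. Where a filter was used, Clec4f passed it only through the Mrp4 KO label. Its difference is therefore given as values and not as support for a change of Kupffer cells. Cd5l and Vsig4 overlapped (0.04, interval -1.05 to 1.13; -0.31, interval -0.97 to 0.35), and of Marco and Timd4, which Kupffer cells also make, Marco did not pass and Timd4 fell. Ly6g and Mpo of the neutrophil list were not analysed here, and none of the other markers in these lists was at 0 in all 8 libraries.

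**Figure D4:**
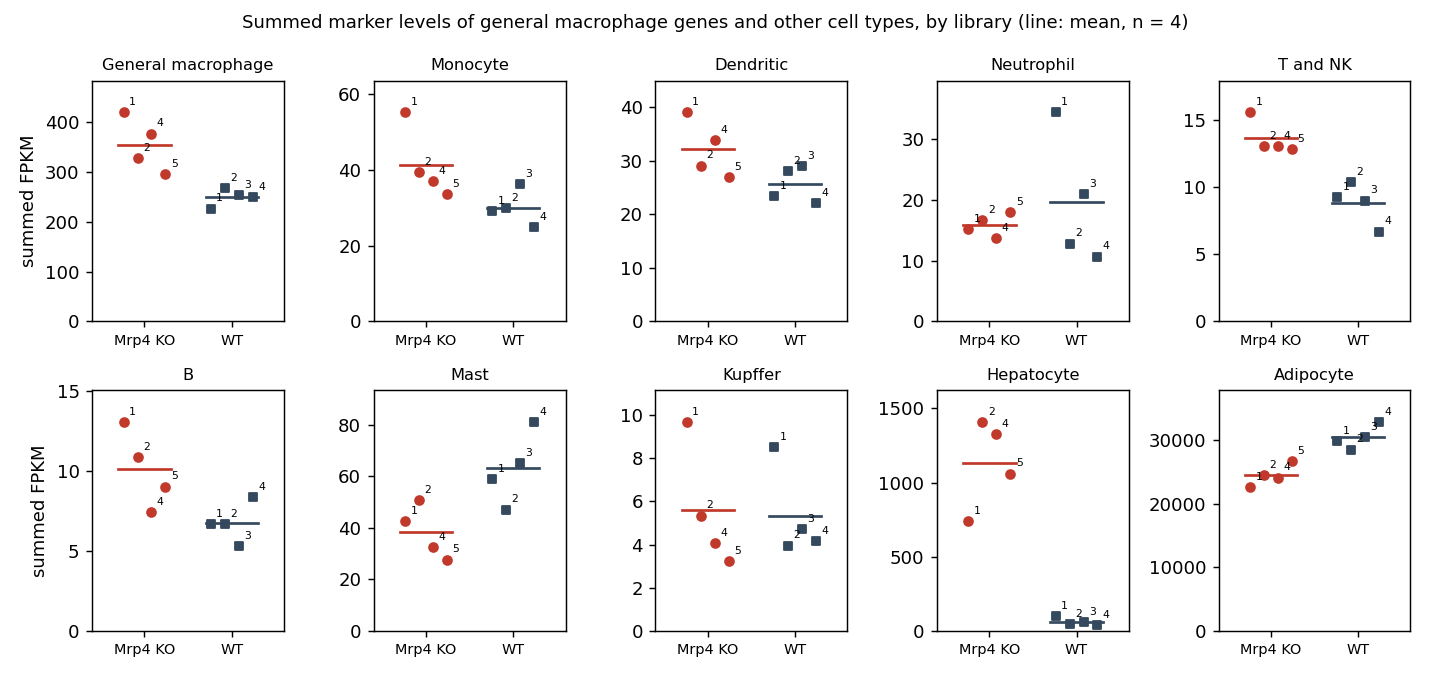
Summed FPKM (y axis, from 0, own scale per panel) of the 7 general macrophage genes and of marker lists of 9 other cell types in each library, Mrp4 KO label left and WT right, with replicate numbers and mean lines (n = 4). General macrophage, T and NK, adipocyte and hepatocyte sums are separated between groups, with adipocyte sums lower under the Mrp4 KO label only with Cfd in the sum (the other 8 genes sum to overlapping values); the other panels overlap.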

How the data were processed

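Whole epididymal fat was sequenced as poly-A RNA in 4 libraries labelled Mrp4 KO and 4 labelled WT. The authors deposited an expected count and an FPKM value per gene for each library, per the file headers. Reads were aligned with Bowtie2 and mm9 is the build, per the submitters' processing notes, while for the program behind the counts the version and name are not given in the sources used. Between 92.0% and 92.6% of expected counts were whole (tolerance 0.005). Total expected counts were 14064681 to 14700114 per library, and reads carried no molecular identifiers, so PCR copies cannot be told from separate molecules. Strand is not stated, so reads of overlapping antisense genes cannot be told apart.

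The 37 members and all other lists were chosen with earlier results of these data known. Expected counts were rounded, low genes removed with filterByExpr (4434 genes), and the remaining 14257 genes tested for genotype with edgeR 4.0.16 (quasi-likelihood, TMM scaling, Benjamini-Hochberg adjustment, threshold 0.05) in R 4.3.3. Simulated data with 200 changed genes of 14257 gave 83% recovery at a log2 change of 1 and 92% at 2, with 6.42% false among the calls. Group averages are means with the SD, n = 4. Intervals are 95%. Members were all open to naming, and from each further macrophage list at most 4 genes with the lowest p among those averaging at least 1 FPKM in either group. Other genes of those lists, and all marker genes of other cell types, were named after their values were seen. Alternatives were DESeq2 size factors, library size alone, no filter, DESeq2 1.42.0, limma 3.58.1 on log2(FPKM + 1) and log2(FPKM + 0.1), a replicate block, and leaving out each library. No library pair held identical values.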

Additional observations from a re-analysis of the deposited data

Results flagged for a closer look

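Of 82 sets of 4 libraries (by label, the FPKM of each member and 4 scores: the lipid-associated, resident and general means and the first minus the second), 7 held a library whose gap to its nearest neighbour, divided by the range, passed Dixon's 95% critical value for 4 samples. Chance alone flags about 1 in 20 such sets. WT replicate 3 was the highest for 3 of them: Lyve1 at 65.8 FPKM, Lyz2 at 550 FPKM and the mean log2(FPKM + 1) of the 5 resident genes at 5.04. WT replicate 1 was the lowest for Csf1r at 65.2 FPKM and for Ctss at 41.2 FPKM. Replicate 5 of the Mrp4 KO label stood apart for Cd14 at 12.4 FPKM and for Tlr4 at 7.43 FPKM.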

How the results depend on the processing

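All 13 member calls held with DESeq2 size factors, library size alone, DESeq2 and both limma fits, and 12 held with no filter on low counts. DESeq2 called 3 members lower and 21 further macrophage genes higher, against 1 and 13 with edgeR. Library size alone and limma on log2(FPKM + 1) each called 2 further macrophage genes lower, against 4. Leaving out 1 library gave 4 to 11 members higher and 1 to 2 lower, 5 to 14 further macrophage genes higher and 1 to 5 lower, and 13 to 20 markers of other cell types higher and 4 to 11 lower. The libraries of both labels share only replicate numbers (correlations of same-numbered libraries of 0.01, -0.07 and -0.13). The fit with that number as a block, in which only the 3 shared numbers inform the genotype effect, called 0 members higher and 0 lower, 0 further macrophage genes in either direction, and 4 markers of other cell types higher and 0 lower; over all genes it called 110 higher and 31 lower. The share of calls that were higher was 55.9%, against 74.1% with library size alone, 73.6% with limma on log2(FPKM + 1) and 73.3% with limma on log2(FPKM + 0.1). The difference between lipid-associated and resident genes was not computed with DESeq2, limma or the block, so those fits say nothing about it. It was 1.19 on log2(FPKM + 0.1), 1.20 on log2 counts with TMM scaling and 1.14 with FPKM rescaled to the same total per library. With each library left out it was 0.89 to 1.24. It kept its sign in all of these. Abcc4, at -0.05, was not called in any fit, and was above 0 with library size alone (0.02), both limma fits (0.03 and 0.04) and the block (0.01). Fewer libraries or degrees of freedom enter the fits without a library and with the block. Of all tested genes, 18.3% were called in either direction with all libraries. It was 25.5% without WT replicate 2, and 8.12% to 11.5% without each other library. Why the calls moved was not tested. The adipocyte marker sum differed by -5979 FPKM (Mrp4 KO minus WT), and by 368 FPKM without Cfd, a setting chosen after seeing the data. Among members, depth limits Fcgr4, Aif1, Clec4d, Marco and Atp6v0d2 most, whose lowest libraries held 17, 18, 18, 20 and 26 expected counts.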
